A study of Mus musculus with 8 samples.

Results

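Brush border hydrolases and peptidases are enzymes of the apical membrane of absorptive enterocytes. The 8 genes described here were chosen by symbol, with earlier results of these data known. They are Sis (SI in human), Lct, Treh, Alpi, Anpep, Enpep, Dpp4 and Mme. All 8 were found among the 21757 genes of a table of mouse genes from a genotype experiment, and all 8 among the 60217 genes kept from tables of human genes from a knockdown experiment. The genotype experiment compared 2 libraries of WT small-intestinal mouse organoids, which are epithelial cultures grown in a gel matrix, with 2 libraries of Ctnnb1-ex3 organoids, named for beta-catenin and its exon 3. The labels do not say which promoter or Cre made the allele, nor whether the line was 1 clone. Per the labels, WT organoids grew with Wnt3a, R-spondin1, Noggin at 0.1 μg/ml and EGF at 0.05 μg/ml, and Ctnnb1-ex3 organoids with Noggin and EGF alone at those concentrations, so genotype and medium cannot be told apart. The knockdown experiment compared 2 libraries with a scrambled hairpin (sh-scramble) with 2 libraries whose hairpin targets Prmt1, an arginine methyltransferase (sh-Prmt1). Its labels give mouse intestinal organoids, but its tables hold human genes, so its cells and medium are not established. The labels do not say if replicates came from different cultures or animals, so each p-value measures only how far these libraries differ, which may be technical.

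The enzymes of the brush border sit on the microvilli with their catalytic parts facing the gut lumen, and they finish the digestion of carbohydrates, peptides and phosphate esters before carriers take the products into the cell. Their genes are switched on as cells leave the crypt and mature along the villus, and factors of the CDX, HNF4 and GATA families are known to act on several of their promoters. Anpep, Dpp4 and Mme are also made by some leukocytes and stromal cells, so their transcripts are less particular to enterocytes than those of Sis, Lct and Alpi.

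Depth was 4631527 and 2951887 counts in the WT libraries, 6015933 and 3683169 in the Ctnnb1-ex3 libraries, and between 39608176 and 53193347 estimated counts in the knockdown libraries. Levels are CPM, counts relative to library size, scaled by the TMM method, given as mean ± SD with n = 2 libraries per group. A gene was called at an edgeR adjusted p under 0.05, and "rose" and "fell" are used of called genes. In the genotype experiment 20.5% of the 12976 genes tested fell and 20.3% rose. In the knockdown experiment 20.4% of the 18449 genes tested fell and 20.6% rose. Of the markers of other cell types in the genotype libraries, 4 of 4 stem cell, 3 of 3 enteroendocrine and 3 of 3 tuft cell markers rose, and 8 of 8 enterocyte markers fell, their median change being -1.42 on the log2 scale. Of 4 goblet cell markers 3 fell, with a median of -0.76, and of 3 Paneth cell markers 1 rose and 2 were not called. PRMT1 had 37.0 and 34.2 CPM with sh-scramble and 2.99 and 3.35 CPM with sh-Prmt1.

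In Ctnnb1-ex3 organoids 7 of the 8 enzyme genes fell, against the 20.5% of all genes tested. All 8 were lower in both Ctnnb1-ex3 libraries than in either WT library. The share of all genes tested that lay apart in this way was not counted. The separation is therefore not read as particular to the 8 genes. The median log2 fold change of the 8 genes was -2.66, beside 0.02 over all genes tested. Summed over the 8 genes, the WT libraries had 3149 and 3499 CPM and the Ctnnb1-ex3 libraries 817 and 517 CPM. The share of counts taken by the 8 genes was 0.303 ± 0.0115% in WT and 0.0725 ± 0.0252% in Ctnnb1-ex3 libraries (n = 2). In these bulk libraries fewer enterocytes and less RNA of these genes per enterocyte cannot be told apart. The falls were of unequal size: Alpi, Mme, Enpep, Sis and Treh fell between 5.84-fold and 13.7-fold, while Anpep and Dpp4 fell 1.80-fold and 1.37-fold.

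**Figure D1:**
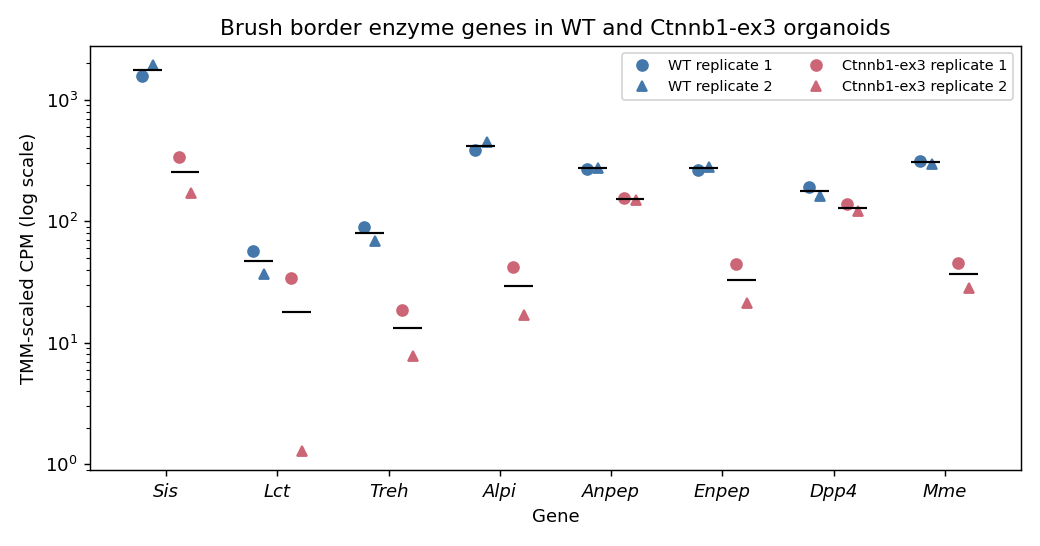
TMM-scaled CPM of the 8 genes (log axis) in each library of the genotype experiment; circles are replicate 1, triangles replicate 2, blue WT, red Ctnnb1-ex3, and black lines the mean of 2 libraries. Every Ctnnb1-ex3 library lies under both WT libraries, closest for Lct and then Dpp4, and Lct is spread over the widest range between the Ctnnb1-ex3 libraries.

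Stretches of RefSeq sequence (GRCm38.p6) upstream of the annotated start are shown for the genes with the largest and the smallest fall, Alpi and Dpp4, and for the most counted and the least changed between replicates, Sis and Anpep. Each is the 250 bases before the start that RefSeq gives, 5′ to 3′ on the strand of the gene, and none overlaps an annotated exon. For Anpep that start lies inside the longer span of the GENCODE annotation given below, so its stretch is not upstream of the whole gene, and the same holds for the Mme window. The Sis stretch lies at chr3:72967864-72968113 (minus strand), Alpi at chr1:87101607-87101856 (minus), Anpep at chr7:79848211-79848460 (minus) and Dpp4 at chr2:62412232-62412481 (minus). Capitals mark matches, on either strand, of the letters of 3 motifs. The core of the CDX motif was searched as TTTAT. Part of the HNF4 motif was searched as CAAAG. The GATA motif was searched as GATAA. CDX and GATA matches on opposite strands can share 4 bases, and both are then counted.
Sis: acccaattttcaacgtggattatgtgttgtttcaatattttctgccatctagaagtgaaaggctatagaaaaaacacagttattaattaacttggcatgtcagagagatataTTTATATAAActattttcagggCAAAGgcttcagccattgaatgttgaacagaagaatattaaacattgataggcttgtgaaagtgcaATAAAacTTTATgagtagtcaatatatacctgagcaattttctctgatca
Alpi: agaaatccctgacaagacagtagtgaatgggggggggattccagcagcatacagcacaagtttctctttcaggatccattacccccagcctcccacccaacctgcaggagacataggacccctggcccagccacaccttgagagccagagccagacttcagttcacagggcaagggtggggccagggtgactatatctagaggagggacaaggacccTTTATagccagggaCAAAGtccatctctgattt
Anpep: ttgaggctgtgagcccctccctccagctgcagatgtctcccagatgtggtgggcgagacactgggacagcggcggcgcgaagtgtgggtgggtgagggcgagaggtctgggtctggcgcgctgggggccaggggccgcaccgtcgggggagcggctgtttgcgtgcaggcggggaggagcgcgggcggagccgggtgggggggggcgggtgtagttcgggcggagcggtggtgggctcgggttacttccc
Dpp4: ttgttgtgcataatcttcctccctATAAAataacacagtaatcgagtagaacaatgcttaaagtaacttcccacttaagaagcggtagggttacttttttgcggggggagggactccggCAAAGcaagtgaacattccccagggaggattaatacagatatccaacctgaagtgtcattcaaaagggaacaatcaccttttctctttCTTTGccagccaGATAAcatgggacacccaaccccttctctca

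The Sis stretch held 4 matches of TTTAT, the most of the 8 genes, and 1 of CAAAG. The Alpi stretch held 1 TTTAT and 1 CAAAG, both close to the start. The Anpep stretch, rich in G and C, held 0 matches of the 3 motifs, and the Dpp4 stretch held 1 TTTAT, 2 CAAAG and 1 GATAA. Over all 32851 windows of the same length, 37.3% held TTTAT, 48.6% CAAAG and 22.6% GATAA. Of the genes whose sequence is not shown, Enpep had 1 TTTAT, 4 CAAAG and 1 GATAA, Lct 2 TTTAT and 3 GATAA, Treh 2 CAAAG, and the exon-free window of Mme 3 CAAAG. These are matches of letters and do not show that a factor binds.

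Of the disaccharidases, Sis encodes sucrase-isomaltase, which splits sucrose and the branch points of starch fragments. Sis (mm10 chromosome 3, 72888557 to 72967863, minus strand) had 1570 and 1929 CPM in WT and 338 and 172 CPM in Ctnnb1-ex3 libraries. It had the highest count of any listed gene in both WT libraries, with 6819 and 5070 counts, and ranked 78 and 1257 in the Ctnnb1-ex3 libraries with 2247 and 671. Sis fell 6.84-fold from 1749 ± 254 to 255 ± 117 CPM (n = 2), a log2 fold change of -2.77 (SE 0.34; edgeR adjusted p = 0.000814). Per kilobase of exon, counted over all annotated exons of a gene rather than those of the transcript made, it ranked 98 and 112 in the WT libraries. With a correction for trends with average abundance the log2 fold change of Sis was -2.16.

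Trehalase, encoded by Treh, splits trehalose, a sugar of fungi and insects. Treh (chromosome 9, 44673233 to 44686305, plus strand) had 89.6 and 69.2 CPM in WT and 18.5 and 7.71 CPM in Ctnnb1-ex3 libraries, and the groups stood apart. It fell 5.84-fold (log2 fold change -2.55, SE 0.35; edgeR adjusted p = 0.00132). Without Ctnnb1-ex3 replicate 1 the log2 fold change was -3.39, and without replicate 2 it was -2.12.

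Lactase, encoded by Lct, splits milk sugar and is strongest in the suckling gut. Lct (chromosome 1, 128284756 to 128328318, minus strand) was counted 249 and 97 times in the WT libraries and 229 and 5 times in the Ctnnb1-ex3 libraries, which is 57.3 and 36.9 against 34.4 and 1.28 CPM. Ctnnb1-ex3 replicate 1 came close to WT replicate 2, and replicate 2 was near the floor of 3 counts. The difference was not called (log2 fold change -1.33, SE 0.86; edgeR adjusted p = 0.245), and it turned on 1 library: leaving out Ctnnb1-ex3 replicate 1 gave -5.19 (edgeR adjusted p = 7.18e-27), and leaving out replicate 2 gave -0.48 (edgeR adjusted p = 0.0813). It was also called with no filter on low counts (log2 fold change -1.32; edgeR adjusted p = 0.00106).

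Intestinal alkaline phosphatase, encoded by Alpi, removes phosphate from lipids, nucleotides and bacterial endotoxin in the lumen, and it is a standard stain for mature enterocytes. Alpi (chromosome 1, 87098002 to 87101606, minus strand) was counted 1694 and 1178 times in the WT libraries and 281 and 66 times in the Ctnnb1-ex3 libraries, or 390 and 448 against 42.2 and 17 CPM. It had the largest fall of the 8 genes, with a log2 fold change of -3.78 (SE 0.36; edgeR adjusted p = 3e-04), with -4.64 without Ctnnb1-ex3 replicate 1 and -3.31 without replicate 2. Akp3, a close relative that is also made in the gut, had 88.6 and 94.7 CPM in WT and 3.31 and 1.28 CPM in Ctnnb1-ex3 libraries and fell by 5.18 on the log2 scale. Because the sequences of these phosphatases are alike, reads could be assigned to the wrong copy, and how the counting treated such reads is not given in the sources used here. Among genes that average 3 or more in log2 CPM, the 3 whose profile over the 4 libraries was nearest to that of Alpi were Chp2, Cyp2c66 and Gda. Their profiles differed from it by a root mean square of 0.0637, 0.0646 and 0.0793 on the log2 scale. Their log2 fold changes, near that of Alpi because of this choice, were -3.80, -3.69 and -3.83.

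Of the 4 peptidase genes, Enpep and Mme fell about as much as Sis, and Anpep and Dpp4 fell little. Enpep encodes aminopeptidase A, which removes acidic residues from the amino end of peptides such as angiotensin. Enpep (chromosome 3, 129269175 to 129332720, minus strand) had 264 and 280 CPM in WT and 44.6 and 21.3 CPM in Ctnnb1-ex3 libraries. It fell 8.03-fold (log2 fold change -3.01, SE 0.29; edgeR adjusted p = 0.000322), with -3.68 on the log2 scale without Ctnnb1-ex3 replicate 1 and -2.61 without replicate 2.

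Mme encodes neprilysin, an endopeptidase that cuts small peptide hormones. Mme (chromosome 3, 63241537 to 63386030, plus strand) had 314 and 296 CPM in WT and 45.5 and 28 CPM in Ctnnb1-ex3 libraries, with a wide gap between the groups. It fell 8.17-fold (log2 fold change -3.03, SE 0.23; edgeR adjusted p = 0.000137), which was the lowest adjusted p of the 8 genes.

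Anpep encodes aminopeptidase N, the broad aminopeptidase of the brush border. Anpep (chromosome 7, 79821803 to 79861059, minus strand) had 271 and 277 CPM in WT and 156 and 149 CPM in Ctnnb1-ex3 libraries. Replicates lay closer together for Anpep than for any other of the 8 genes within the Ctnnb1-ex3 group. Anpep fell 1.80-fold from 274 ± 4.53 to 152 ± 4.82 CPM (n = 2), a log2 fold change of -0.85 (SE 0.15; edgeR adjusted p = 0.00364). It stayed called but was smaller with a correction for trends with average abundance (-0.44; edgeR adjusted p = 0.0341), with an offset for counts per kilobase (-0.50) and with upper-quartile factors (-0.61).

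Dpp4 encodes dipeptidyl peptidase 4, which removes dipeptides after proline and inactivates incretin hormones. Dpp4 (chromosome 2, 62330073 to 62412231, minus strand) had 193 and 162 CPM in WT and 139 and 121 CPM in Ctnnb1-ex3 libraries, without overlap but with a small gap. It fell 1.37-fold (log2 fold change -0.45, SE 0.16; edgeR adjusted p = 0.0489). That call was lost in 10 of 12 alternative settings, with log2 fold changes from -0.58 to -0.13 over the 12, and the authors' deposited table gives Dpp4 an adjusted p of 0.263.

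Markers of leukocytes were uneven between the libraries of this comparison. Ctnnb1-ex3 replicate 2 held 110 counts of Gzma, 25 of Ptprc, 14 of Cd3e and 13 of Cd3g, against 1 count of Gzma in each other library. The summed CPM of 7 immune markers was 89.1 and 12.2 for WT, against 12 and 64.0 for Ctnnb1-ex3 libraries, and the high WT value came from Lyz2, with 323 counts in WT replicate 1. The 8 stromal and endothelial markers summed to 29.7 and 12.6 CPM in WT and to 45.8 and 32.9 CPM in Ctnnb1-ex3 libraries. Only 2 of these 8 had enough counts to test, with log2 fold changes of 0.89 and 1.05, and neither was called. Col1a1, Col3a1 and Pdgfra had between 1 and 7 counts in every library. The part of these cells in the levels of Anpep, Dpp4 and Mme was not tested.

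The Ctnnb1-ex3 libraries differed between themselves in these enzymes. All 8 genes were lower in Ctnnb1-ex3 replicate 2 than in replicate 1, while 50.5% of all genes tested were and 3 of 8 enterocyte markers were. In CPM, replicate 1 stood 1.05 times above replicate 2 for Anpep and 1.15 times for Dpp4. The ratio was 1.63 for Mme, 1.96 for Sis, 2.09 for Enpep, 2.40 for Treh, 2.49 for Alpi and 26.8 for Lct. In WT 4 of the 8 were lower in replicate 2, with ratios between 0.814 for Sis and 1.55 for Lct. Of the carriers 8 of 10 were also lower in Ctnnb1-ex3 replicate 2, and the summed enterocyte markers were alike, at 1171 and 1196 CPM.

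**Figure D2:**
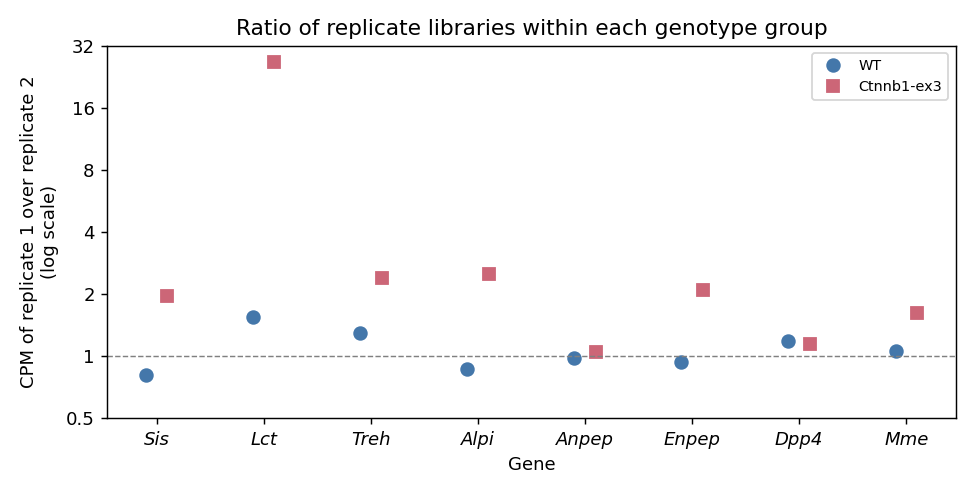
CPM of replicate 1 divided by that of replicate 2 for each gene (log axis) in WT (blue circles) and Ctnnb1-ex3 (red squares) libraries; the dashed line marks equal levels. In Ctnnb1-ex3 all 8 ratios lie above 1, from 1.05 for Anpep to 26.8 for Lct, and in WT 4 lie above and 4 under it.

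The order of the 8 genes by level also differed between the groups. Per kilobase of exon, the order in WT was Sis with 234 ± 34.0 CPM per kb, Alpi with 179 ± 17.6, Anpep with 66.2 ± 1.10, Enpep with 57.8 ± 2.45, Treh with 38.8 ± 7.02, Dpp4 with 28.1 ± 3.44, Mme with 26.5 ± 1.10 and Lct with 7.35 ± 2.25 (n = 2). Dpp4 and Mme overlapped there, and the other neighbours did not. In Ctnnb1-ex3 libraries Anpep led with 36.8 ± 1.17 CPM per kb, followed by Sis with 34.2 ± 15.7, Dpp4 with 20.5 ± 1.97, Alpi with 12.7 ± 7.65, Enpep with 7.01 ± 3.50, Treh with 6.39 ± 3.72, Mme with 3.19 ± 1.07 and Lct with 2.79 ± 3.66. Many neighbours in that order overlapped: Anpep with Sis, Alpi with Enpep, Enpep with Treh, Treh with Mme, and Mme with Lct. Sis and Anpep changed places between the Ctnnb1-ex3 libraries, with Sis at 45.2 and 23.1 and Anpep at 37.6 and 36.0 CPM per kb. In WT Sis and Alpi had 0.914 and 0.725 counts per exon base in replicate 1, the densest of the 8 genes.

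Other hydrolases of the brush border fell with them. Of 14 tested, 11 fell and 0 rose, with a median log2 fold change of -2.33. The largest falls were of Akp3, of Naaladl1, a peptidase related to glutamate carboxypeptidase, with -3.58, and of Ggt1, the gamma-glutamyltransferase, with -3.56. Mgam, encoding maltase-glucoamylase, the partner of sucrase-isomaltase in starch digestion, was outside the naming rule and is given as its nearest relative. It had 952 and 1056 CPM in WT and 338 and 364 CPM in Ctnnb1-ex3 libraries and fell by 1.52 on the log2 scale (edgeR adjusted p = 0.001). Mgam was not lower in Ctnnb1-ex3 replicate 2 than in replicate 1, whereas Sis went from 338 CPM in replicate 1 to 172 CPM in replicate 2.

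Carriers that take up the products of these enzymes fell by a similar median, -2.74, with 9 of 10 genes called. Slc6a20a, a carrier of proline, had a log2 fold change of -4.62, Slc2a2, the basolateral glucose carrier, -4.11 and Slc6a19, the main carrier of neutral amino acids, -3.94. Genes of the microvillus itself fell in 11 of 14 cases with a median of -1.10. Tmigd1, an adhesion protein of the brush border, had -4.40, and Anks4b and Myo1a, which link the microvilli and their membrane, both had -1.65.

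Transcription factors of enterocytes changed less. Of 11 tested, 5 fell and 0 rose, with a median of -0.36. Prdm1, a transcriptional repressor, had a log2 fold change of -2.92 on 54 and 19 WT counts, against 6 and 7 for Ctnnb1-ex3. Hnf4g had -2.31 and Gata4 -0.85. Cdx2, Cdx1 and Hnf4a are also named after their values were seen, because the CDX and HNF4 motifs are given above. Cdx2 had a log2 fold change of 0.04 and Cdx1 of -0.36, and neither was called (edgeR adjusted p = 0.844 and 0.101). Hnf4a had -0.64 and fell (edgeR adjusted p = 0.0243). Of 11 relatives of the enzymes that do not sit on the brush border, 3 rose and 3 fell, with a median of -0.26. Klb, a lactase-like protein that serves as a co-receptor, went from 1 count in each WT library to 49 and 12, and since 1 was probably added to every count its WT level was under the floor of 3 counts and no fold is given. Gaa, the lysosomal glucosidase, had 0.66 and Dpp8, a cytoplasmic relative of Dpp4, 0.43, while Erap1, Dpp9 and Rnpep had -0.73, -0.49 and -0.48. With upper-quartile scaling the median over all genes tested moved to 0.26 and the share of calls that fell from 50.2% to 32%.

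**Figure D3:**
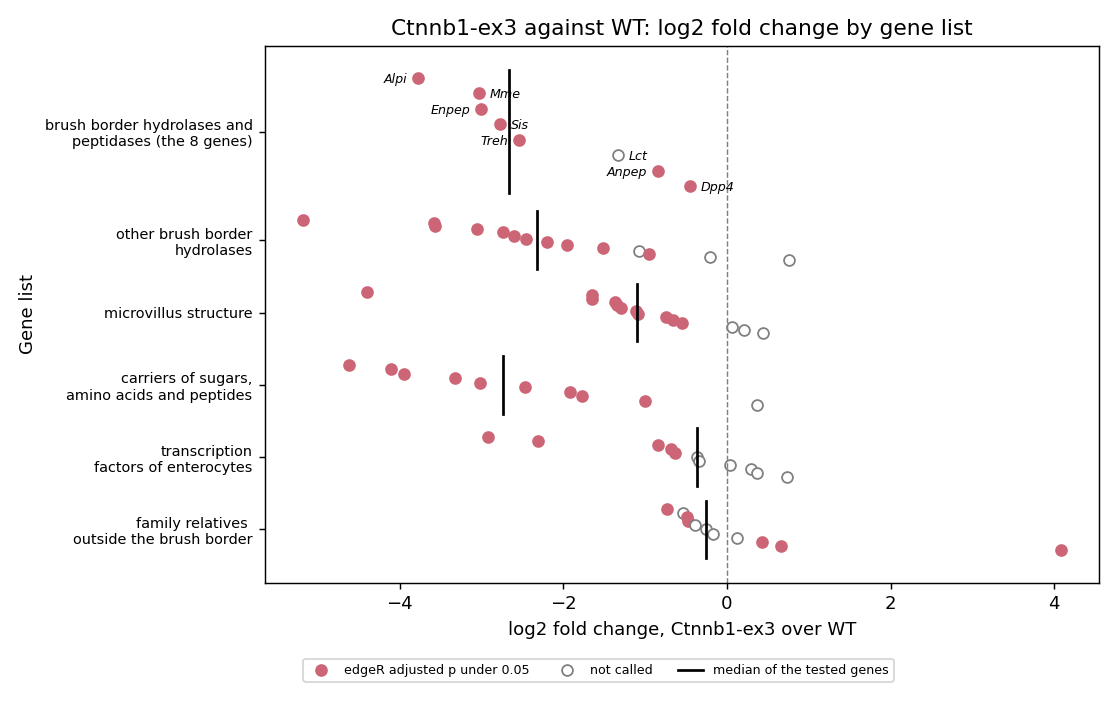
Log2 fold change of Ctnnb1-ex3 over WT for each tested gene of 6 lists; filled points have an edgeR adjusted p under 0.05, open points do not, and vertical lines are the medians of tested genes. The 8 enzyme genes, other hydrolases and carriers have medians between -2.74 and -2.33, microvillus genes -1.10, transcription factors -0.36 and relatives off the brush border -0.26.

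In the knockdown experiment 3 of the 6 enzyme genes tested rose with sh-Prmt1, against the 20.6% of all genes tested, and 0 fell. SI, ANPEP and DPP4 rose, TREH, ALPI and MME were not called, and LCT and ENPEP had too few counts to test. The median log2 fold change of the 6 was 0.32, beside 0.03 over all genes tested. The share of estimated counts taken by the 8 genes was 0.00792 ± 0.0000692% with sh-scramble and 0.0119 ± 0.000315% with sh-Prmt1 (n = 2), and nearly all of it was DPP4 and MME. Markers that define an absorptive enterocyte were uneven in these libraries: FABP1 had between 5386 and 7806 CPM, while APOA1, APOA4 and MTTP had between 0 and 13 counts in each library.

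**Figure D4:**
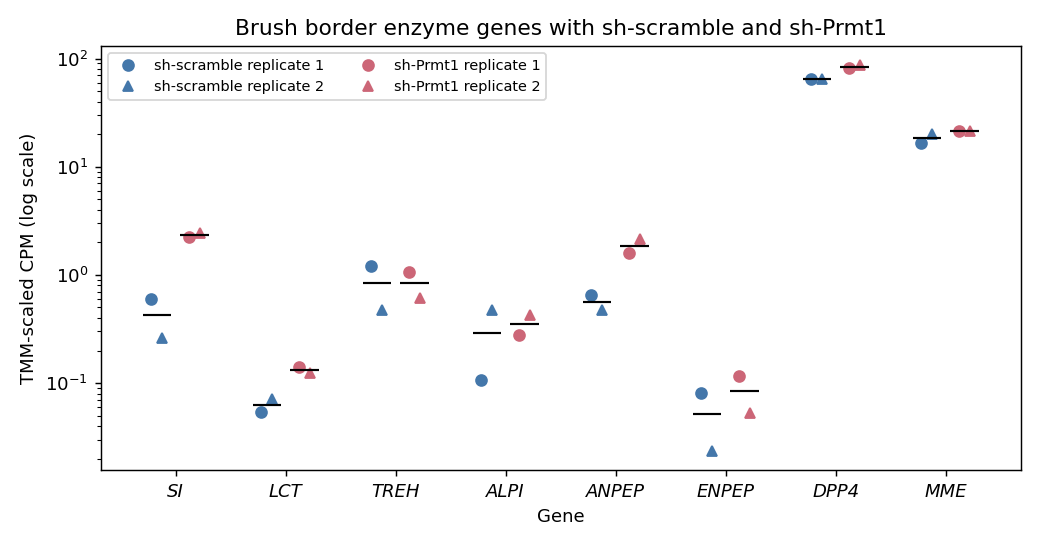
TMM-scaled CPM of the 8 human genes (log axis) in each library of the knockdown experiment; circles are replicate 1, triangles replicate 2, blue sh-scramble, red sh-Prmt1, and black lines the mean of 2 libraries. SI, ANPEP, DPP4, MME and LCT are higher in both sh-Prmt1 libraries, and of these only SI, ANPEP and DPP4 were called. TREH, ALPI and ENPEP overlap between the groups, and LCT and ENPEP lie at or under 0.140 CPM.

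SI had 22 and 11 estimated counts with sh-scramble and 96 and 139 with sh-Prmt1, or 0.593 and 0.259 against 2.24 and 2.45 CPM. Both sh-Prmt1 libraries lay well above both controls, at a level that was still low. SI rose 5.56-fold (log2 fold change 2.47, SE 0.37; edgeR adjusted p = 0.000611). Without sh-scramble replicate 1 the log2 fold change was 3.12, and on the log2(TPM + 1) scale, which understates the change of low genes, it was 0.55 (limma adjusted p = 0.0145). The authors' deposited table gives SI a log2 fold change of 1.73. The 3 genes nearest to SI in profile over the 4 libraries were AC024560.5, SELENOP and SDCBP2, at root mean square differences of 0.302, 0.304 and 0.321 on the log2 scale.

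ANPEP had 24 and 20 estimated counts with sh-scramble and 68 and 121 with sh-Prmt1, which is 0.647 and 0.472 against 1.59 and 2.13 CPM. The groups did not overlap. It rose 3.34-fold (log2 fold change 1.74, SE 0.33; edgeR adjusted p = 0.00232), by 0.42 on the log2(TPM + 1) scale, and the authors' deposited table gives it an adjusted p of 0.0727.

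DPP4, the most abundant of the 8 genes by TPM, had 65.2 and 64.4 CPM with sh-scramble and 81.7 and 86.7 CPM with sh-Prmt1. Replicates lay close together and the groups apart. The rise was small, 1.30-fold from 64.8 ± 0.606 to 84.2 ± 3.53 CPM (n = 2), a log2 fold change of 0.38 (SE 0.083; edgeR adjusted p = 0.00523). MME had 16.4 and 20.1 CPM with sh-scramble and 21.3 and 21.4 CPM with sh-Prmt1, without overlap, and was not called (log2 fold change 0.23, SE 0.11; edgeR adjusted p = 0.146). MME was called with an offset for effective lengths (log2 fold change 0.54; edgeR adjusted p = 0.00712) and with limma on log2(TPM + 1) (0.49; limma adjusted p = 0.036), and the authors' deposited table gives it 0.43 with an adjusted p of 0.0101. In TPM, transcript abundance corrected for length, MME had 1.75 and 1.94 with sh-scramble and 3.16 and 2.84 with sh-Prmt1.

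TREH had 45 and 20 estimated counts with sh-scramble and 46 and 35 with sh-Prmt1, and the groups overlapped (log2 fold change 0.00; edgeR adjusted p = 0.997). ALPI had 4 and 20 against 12 and 24, also with overlap (log2 fold change 0.26; edgeR adjusted p = 0.784). The standard errors, 0.49 for TREH and 0.66 for ALPI, were larger than the log2 fold change called for DPP4. LCT had 2 and 3 against 6 and 7 estimated counts and ENPEP 3 and 1 against 5 and 3, near the floor of 3.

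The close relatives of ALPI in human differed from it. ALPP, the placental alkaline phosphatase, had 5 and 5 estimated counts with sh-scramble and 51 and 60 with sh-Prmt1, and ALPG, the germ cell form, 8 and 18 against 98 and 115. Both rose, by log2 fold changes of 3.13 and 2.72 (edgeR adjusted p = 0.000474 and 0.000315). Both passed the filter on low counts through the sh-Prmt1 libraries, where they were high, so their folds are uncertain. Neither overlapped between the groups. The 3 genes are closely similar copies and Salmon divides shared reads among them by estimate, so how the reads fell to each is uncertain.

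By TPM the order with sh-scramble was DPP4 at 8.90 ± 0.209, MME at 1.84 ± 0.139, TREH at 0.248 ± 0.145, ANPEP at 0.208 ± 0.0433, SI at 0.142 ± 0.0217 and ALPI at 0.0857 ± 0.0782 (n = 2). TREH overlapped ANPEP and SI there, and SI overlapped ALPI. With sh-Prmt1 it was DPP4 at 13 ± 0.110, MME at 3.0 ± 0.221, SI at 0.674 ± 0.191, ANPEP at 0.621 ± 0.0989, TREH at 0.298 ± 0.125 and ALPI at 0.132 ± 0.0341, with SI and ANPEP overlapping. LCT and ENPEP were at or under 0.0237 TPM in every library. DPP4, among the lower-ranked of the 8 in the WT mouse organoids, was the highest in these human tables, and SI, the highest in mouse, was low.

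Among the other brush border hydrolases, 6 of 15 human genes could be tested, of which 3 rose and 1 fell, and the median was 0.72 on the log2 scale. DPEP1, a dipeptidase, rose by 1.79 and GGT1 by 1.12, while NT5E, an ecto-nucleotidase, had -0.77. Of 13 microvillus genes 8 rose and 1 fell, with a median of 0.56: CDHR5, an adhesion protein between microvilli, had 1.59, MYO7B 1.03 and ESPN 0.94, and PLS1, which bundles actin, -0.79. Of 6 carriers SLC1A1 and SLC6A20 rose, with 0.87 and 0.33, and SLC5A1, the glucose carrier coupled to sodium, had -0.61 and fell. Of 10 transcription factors 4 rose and 0 fell, with a median of 0.32, and ELF3 rose by 0.90.

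Relatives of the enzymes off the brush border moved both ways. Of 13, 5 rose and 3 fell, with a median of 0.10. ALPG, ECE1, an endopeptidase related to neprilysin, with 1.07, and DPP9 with 0.85 had the largest rises, and FAP, the closest relative of DPP4, had -2.18, GANAB -0.95 and DPP8 -0.30. Of the 8 enterocyte markers 4 could be tested: RBP2, a retinol carrier, went from 0 and 0 to 61 and 31 estimated counts and rose, FABP1 had -0.46 and fell, and FABP2 and KRT20 were not called. HBB, a blood marker, had 2 and 1 against 116 and 222 estimated counts and rose. The 7 immune and blood markers, HBB among them, summed to between 0.324 and 4.51 CPM, and GZMA was at 0. With sh-Prmt1 HBB alone had 2.71 and 3.91 CPM of the summed 3.32 and 4.51 CPM. The part of these genes in the rise of SI and ANPEP was not tested.

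**Figure D5:**
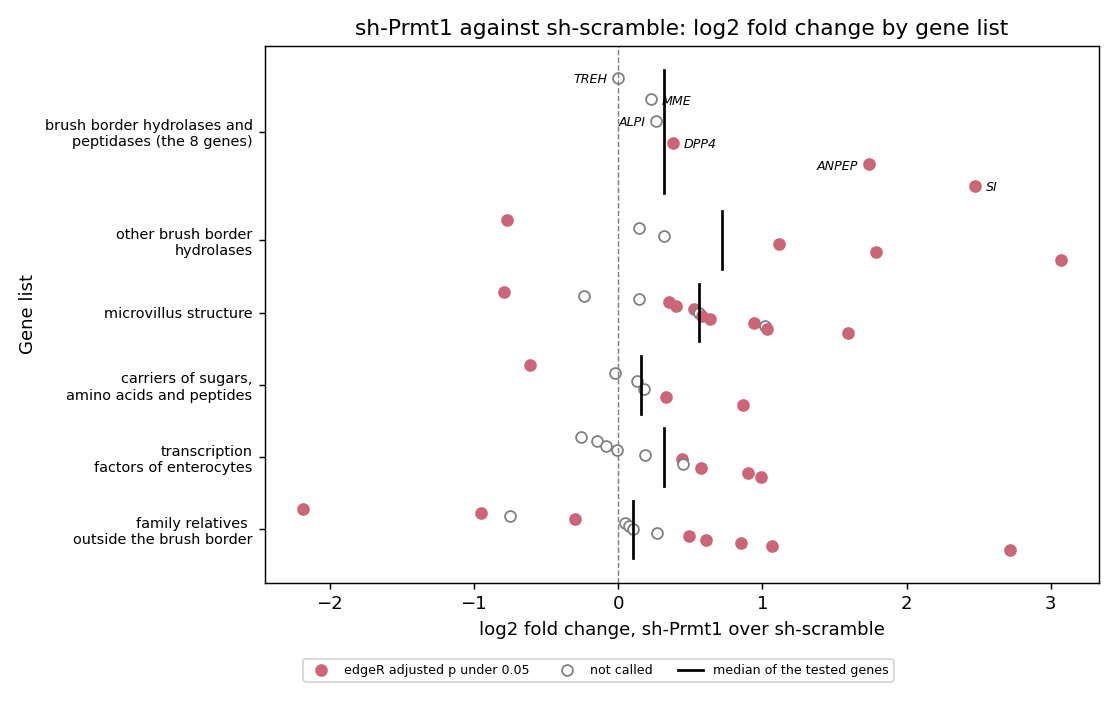
Log2 fold change of sh-Prmt1 over sh-scramble for each tested human gene of 6 lists; filled points have an edgeR adjusted p under 0.05, open points do not, and vertical lines are the medians of tested genes. SI and ANPEP lie apart at 2.47 and 1.74, the 4 other tested enzyme genes lie between 0.00 and 0.38, and the list medians lie between 0.10 and 0.72.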

How the data were processed

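Polyadenylated RNA was sequenced from 8 libraries, 2 in each of 4 groups, by a custom Smart-seq2 method, per the labels. The submitters' processing notes name mm10, Salmon and DESeq2 without roles or versions. For the genotype experiment the authors deposited whole-number counts per mouse gene, used here as deposited; no value is under 1, so 1 was probably added to each, and an alternative took 1 away. For the knockdown experiment the deposited Salmon output holds, per the file headers, estimated counts (rounded here), effective lengths and TPM per human gene; 20 sex-linked genes were left out. The authors' deposited comparisons give log2 fold changes and adjusted p-values.

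Each experiment was fitted alone in R 4.3.3 with edgeR 4.0.16 (TMM, filterByExpr, two-sided quasi-likelihood test, Benjamini-Hochberg over all genes tested). Log2 CPM used a prior count of 2. The edgeR test gives no SE, so each SE was taken as the size of the log2 fold change over the square root of its F statistic. Alternatives used DESeq2 1.42.0, limma 3.58.1, other scalings and filters, each library left out and a replicate block. The scripts were tested on simulated data. Coordinates and exon lengths come from the GENCODE annotation of GRCm38 (mm10), and upstream sequences from RefSeq (GRCm38.p6), where 8 of 8 members matched by symbol. Exon length counts every annotated exon base of a gene, so the order of genes per kilobase can still turn on length.

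The members and gene lists were chosen with earlier results of these data known. All 8 members are named, and of each other list up to 3 called genes with the largest fall and up to 3 with the largest rise, plus relatives that share sequence; exceptions are stated, and some genes that the rule names are not reported here. In CPM a floor of 3 counts ranged from 0.451 to 1.14 for genotype and from 0.0528 to 0.0809 for knockdown libraries, and covers counting error only.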

Additional observations from a re-analysis of the deposited data

How the results depend on the processing

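With 2 libraries per group, small differences such as that of Dpp4 rest on little replication. Under 12 alternatives for each experiment, Sis, Treh, Alpi, Anpep, Enpep and Mme stayed called and lower, and SI, ANPEP and DPP4 stayed called and higher. The number of genotype genes called, 5291, ranged from 2634 to 7757 with a library left out (2960 without WT replicate 1 and 2634 without WT replicate 2), and the knockdown number, 7560, from 5809 to 6893. The lone library of a group was then assumed to vary like the other group. Member calls were 6 to 8 in the genotype experiment with a library left out and 3 in the knockdown experiment.

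Dpp4, at -0.45, lost its call with DESeq2 (-0.48), upper-quartile factors (-0.22), an abundance trend (-0.13), no filter (-0.44), voom (-0.45), 1 taken away (-0.45) and an offset for counts per kilobase chosen after seeing the data (-0.29), and ranged from -0.58 to -0.35 with a library left out. Lct, at -1.33, was called with no filter (-1.32) and ranged from -5.19 to -0.48. MME was called with effective lengths (0.54) and on log2(TPM + 1) (0.49). TREH, uncalled throughout, changed sign with DESeq2 (-0.012), an abundance trend (-0.028) and no filter (-0.040), and ranged from -0.55 to 0.78 with a library left out. ALPI, also uncalled, was -0.037 with an abundance trend and ranged from -0.46 to 1.67. Where no construction is named, the cause was not tested. On log2(TPM + 1) the share of knockdown calls that fell went from 49.8% to 34.9%.

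Replicate numbers were not shown to pair the samples: deviations of equally numbered libraries correlated at 0.0706 in the genotype and -0.0514 in the knockdown experiment, across genes and over only 2 pairs. With a replicate block 6484 genotype genes and 8 members were called, Lct among them (-1.94), and 7094 knockdown genes and 3 members.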
